A study of Mus musculus with 5 samples.

Results

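Regulatory T (Treg) cells in which Malt1 had been deleted were compared with wild-type Treg cells of the same age, 21 days. The deleted library (KO) came from mice of genotype Foxp3Cre-YFP /malt1fl/fl, in which Cre driven by Foxp3 recombines the floxed Malt1 gene in cells that express Foxp3. Its control (21-day WT) came from Foxp3-Cre-YFP reporter mice that the labels call wild type. A second wild-type library of the same genotype, taken at 6 weeks (6-week WT), is given beside it. All mice were C57BL/6 and all groups carried the Foxp3-driven Cre and its yellow fluorescent protein (YFP), by which CD4+YFP+ cells were sorted before total RNA was sequenced. The series holds 2 further libraries at 6 weeks (KI, Foxp3Cre-YFP /malt1fl/C472A). The labels describe these mice as having Malt1 protease activity inhibited in Treg cells. KI is the only group with replicates, and its values are given beside some results. The organ the cells came from and the number of animals behind a library are not stated in the labels. Each side of the comparison is 1 library, so no difference has a replicate check of its own, and the text gives levels and says whether the error bounds of the files overlap. A limma fit that takes its spread from the KI pair alone was run as an alternative, and it called 0 genes at an adjusted p of 0.05 and 778 higher and 748 lower at an unadjusted p under 0.05.

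Of the 38130 gene entries in the files, 11927 reached an FPKM of 1 or more in the KO library, in 21-day WT or in both, and these are the genes described. FPKM counts fragments per kilobase of transcript, scaled to the fragments mapped in the library, and is thus a level per length. In both libraries 10307 genes reached this level, in KO only 1118 and in 21-day WT only 502. At the edge of this filter, AC155636.1 was kept with an FPKM of 1.001840 in KO and 0.136 in 21-day WT, and Gm10382 was left out with 0.951 and 0.999666. By annotation 10230 of the 11927 were protein coding.

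Malt1 encodes a paracaspase, a protease related to caspases that also serves as a scaffold. After a T cell receptor is engaged, kinases of the protein kinase C family trigger assembly of the CBM complex, which holds BCL10 and MALT1, and this complex recruits ubiquitin ligases and activates the IKK kinases, NF-kB and AP-1. As a protease MALT1 cleaves inhibitors of these pathways and RNA-degrading proteins such as Regnase-1 and the Roquins. Treg cells express the transcription factor Foxp3 and hold other immune cells in check, and signalling through CBM is known to be needed for their development and suppressive function.

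The libraries differed in depth, and this touches every comparison below. FPKM hold no counts, but the width of the deposited bounds (FPKM plus and minus 2 standard errors) gives a relative depth, estimated over 4006 genes. 21-day WT was 3.14 times as deep as KO (quartiles over genes 2.56 and 3.65), and the KI libraries were 2.69 and 2.62 times as deep, whereas 6-week WT had 0.886 times the depth of KO. The age-matched control thus belongs with the deep libraries, and the control of similar depth differs from KO in age; genotype and depth cannot be told apart in the first comparison, nor genotype and age in the second. For this reason each gene is given against both WT libraries. FPKM were divided by a factor for each library and are called scaled FPKM, and a difference is log2(scaled FPKM + 1) in KO minus that in WT. Without the factor the median difference of all genes against 21-day WT moved from 0.04 to 0.37, and against 6-week WT it was 0.00 with and without.

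The level of Malt1 in the library labelled KO lay between those of the WT libraries. Malt1 (ENSMUSG00000032688, chromosome 18, 65430963 to 65478823, GRCm38) had a scaled FPKM of 17.6 in KO (bounds 16.4 to 18.8), 27.0 in 21-day WT (bounds 26.1 to 27.8) and 15.2 in 6-week WT (bounds 14.1 to 16.4). The value is summed over the gene, and the labels do not say which exons are floxed, so it does not check the deletion. Markers of T cells were high in all libraries. The summed scaled FPKM of 7 T cell markers (Cd3e, Cd3d, Cd3g, Cd4, Lck, Thy1 and Trac) was 2199 in KO, 2047 in 21-day WT and 2623 in 6-week WT, and 0 of the 7 passed the call rule against either. The defining Treg genes were also present in KO, with Foxp3 at 30.5, Il2ra, the alpha chain of the interleukin 2 receptor, at 76.7, and Tnfrsf18, the receptor GITR, at 102.

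Most genes lay within 2-fold of their WT level, and the genes apart from it differed in number and direction between the controls. A gene was called higher or lower when its difference was at least 1, that is 2-fold on this scale, and the bounds of the 2 libraries did not overlap. At any difference, bounds lay apart for 6093 genes against 21-day WT and for 2597 against 6-week WT. A gene that was not called can thus have bounds apart. Against 21-day WT, 672 genes (5.63%) were higher in KO and 892 (7.48%) lower, with a median difference of 0.04 and quartiles of -0.41 and 0.45. Against 6-week WT, 324 (2.72%) were higher and 156 (1.31%) lower, with a median of 0.00 and quartiles of -0.23 and 0.26. In the same direction against both, 228 genes (1.91%) were higher and 79 (0.662%) lower. Both comparisons use the same KO library, so the overlap is not independent support. Of all calls against 21-day WT 43.0% were higher, and with FPKM as deposited 76.2% were, so that the balance of directions follows the scaling. As a measure of how far libraries of 1 group lie apart, 646 of the 11927 genes (5.42%) differed by as much, with bounds apart, between the KI libraries. The bounds cover error within a library only. The counts for gene lists below stand beside these shares of all genes: 5.63% higher and 7.48% lower against 21-day WT, 2.72% and 1.31% against 6-week WT.

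**Figure D1:**
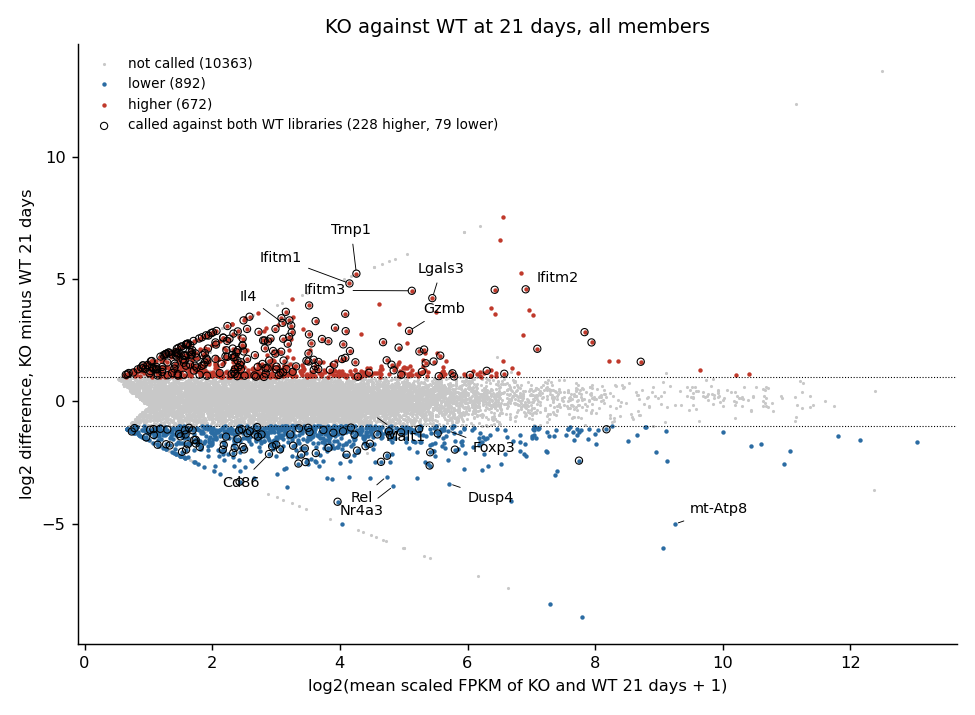
Difference between KO and 21-day WT (vertical axis, log2 scale) against the mean level of the 2 libraries (horizontal axis, log2 of scaled FPKM + 1) for 11927 genes. Red and blue points are the 672 higher and 892 lower genes, circles mark those called against both WT libraries, grey points are not called (those far from 0 have bounds that overlap), and dotted lines mark a difference of 1.

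Among the 12 genes furthest above both WT libraries were 3 of the Ifitm family, and all 4 members on the list, Ifitm1, Ifitm2, Ifitm3 and Ifitm10, were higher against both. Of the unlisted members, Ifitm6 had 1.41 in KO, was listed at 0 in 21-day WT and had 0.976 in 6-week WT, against which it was not called, and Ifitm5 did not reach the filter. Ifitm proteins are small interferon-induced membrane proteins that restrict the entry of viruses. Ifitm2 had a scaled FPKM of 230 in KO (bounds 216 to 245), 8.69 in 21-day WT and 7.52 in 6-week WT. Ifitm3 had 66.0 in KO (bounds 59.0 to 72.9), 1.91 in 21-day WT and 10.6 in 6-week WT. Ifitm1 had 33.3 in KO (bounds 27.6 to 39.0), 0.211 in 21-day WT and 2.02 in 6-week WT. In all 3 the KO library stood above both controls with no overlap of bounds, by 4.58, 4.52 and 4.82 against 21-day WT and by 4.76, 2.53 and 3.50 against 6-week WT. Ifitm10, a more distant member, had 2.96 in KO, 0.360 and 0.456 in WT. The KI libraries had 54.8 and 25 for Ifitm2, so this gene varied between replicates of that group by more than 2-fold. These genes are close relatives and can share reads, and Ifitm2 overlaps the annotated gene Gm45717 on the same strand, so the split between them is uncertain.

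Ifitm1, Ifitm2 and Ifitm3 lie side by side on chromosome 7 (GRCm38; Ifitm2 at chr7:140954839-140955961, Ifitm1 at chr7:140967221-140969825 and Ifitm3 at chr7:141009586-141010770), and their promoters are shown because these neighbours moved together. Within 100 kb of the group the files list 19 entries, of which 13 passed the filter. Against 21-day WT 6 of the 13 were higher and 1 lower, and 4 were higher against both WT libraries. The fourth was B4galnt4, a glycosyltransferase, with 12.2 in KO and 3.16 and 3.26 in WT. Flanking genes such as Ric8 (33.5 in KO, 26.7 in 21-day WT, 27.7 in 6-week WT) and Psmd13, a proteasome subunit (46.3, 30.4 and 45.5), were not called. The sequences are from RefSeq (GRCm38.p6), 250 bases before to 30 bases after the annotated start, read 5′ to 3′ on the gene's strand. Capitals mark matches, on either strand, to 4 motifs: kB, the site of NF-kB, searched as its usual decamer; AP-1, TGANTCA; ISRE core, GAAANNGAAA, the core of the interferon-stimulated response element; and GAS, TTCNNNGAA, the site of STAT dimers.
Ifitm2 (chr7:140955932-140956211, minus strand): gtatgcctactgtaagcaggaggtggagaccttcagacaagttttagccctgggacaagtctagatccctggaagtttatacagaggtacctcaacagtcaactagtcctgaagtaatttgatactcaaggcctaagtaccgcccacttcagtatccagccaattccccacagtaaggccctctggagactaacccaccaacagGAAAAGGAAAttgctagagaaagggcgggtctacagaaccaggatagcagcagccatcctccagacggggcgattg
Ifitm3 (chr7:141010715-141010994, minus strand): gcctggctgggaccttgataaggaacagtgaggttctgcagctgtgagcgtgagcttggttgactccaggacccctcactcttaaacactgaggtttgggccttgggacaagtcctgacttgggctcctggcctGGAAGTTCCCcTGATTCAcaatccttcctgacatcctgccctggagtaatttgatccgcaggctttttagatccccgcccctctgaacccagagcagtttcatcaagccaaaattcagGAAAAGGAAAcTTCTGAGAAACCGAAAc
Ifitm1 (chr7:140967826-140968105, plus strand): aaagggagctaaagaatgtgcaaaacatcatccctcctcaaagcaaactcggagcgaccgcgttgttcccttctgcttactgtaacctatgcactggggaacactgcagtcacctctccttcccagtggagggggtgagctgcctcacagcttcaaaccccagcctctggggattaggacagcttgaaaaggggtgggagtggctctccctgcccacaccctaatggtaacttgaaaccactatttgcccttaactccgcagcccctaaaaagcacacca

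The Ifitm2 window held 1 ISRE core, the Ifitm3 window 5 matches (1 kB, 1 AP-1, 2 ISRE core and 1 GAS, the GAS overlapping the second ISRE core), and the Ifitm1 window 0. The Ifitm1 window begins at 140967826, inside the Ifitm1 entry, which starts at 140967221. The bases before the start of that entry were not searched. ISRE core occurred in 3.44% of the 32851 RefSeq windows of 300 bases searched and in 3.20% of the 10866 windows of the genes described, of which 8590 of 11927 had a window. Among the windows of genes higher against both WT libraries it occurred in 5.75% of 174, and among those lower against both in 15.0% of 60. The kB motif occurred in 8.46% of all windows, 10.3% of those of the genes described, 17.2% of the higher and 10% of the lower set. For AP-1 these shares were 7.81%, 4.75%, 11.5% and 15.0%, and for GAS 8.30%, 6.93%, 13.2% and 3.33%. These are counts of letters and do not show binding.

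Outside the Ifitm family, the interferon-stimulated genes did not stand together. Of 21 measured genes of the type I interferon response, 0 were higher and 2 lower against 21-day WT, and 0 were higher and 6 lower against 6-week WT. Ifit1, which binds viral RNA, had 2.62 in KO, 7.42 in 21-day WT and 12 in 6-week WT. Oas1a, a sensor of double-stranded RNA, had 1.51 in KO, 5.79 in 21-day WT and 5.17 in 6-week WT, and these 2 genes were lower against both. Of 14 GTPases of the interferon-gamma response 4 were higher against 21-day WT, and of these Iigp1 and Gbp2, which act on the vacuoles of intracellular pathogens, also against 6-week WT. Iigp1 had 39.5 in KO, 11.7 in 21-day WT and 13.4 in 6-week WT, and Gbp2 had 73.0, 35.6 and 29.4. In the KI pair Iigp1 had 32.5 and 40.4, and Gbp2 39.7 and 50.9. The other GTPases called against 21-day WT were Tgtp1 (54.7 in KO, 9.62 and 29 in WT) and Tgtp2 (56.5, 22.4 and 39.8), near-identical copies whose reads may be split between them. Of 10 genes of antigen presentation by class I molecules 0 were called against either control.

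The other 9 of these 12 genes follow. Trnp1, a nuclear protein that regulates the cell cycle and brain growth, was listed at 0 in both WT libraries and had 36.3 in KO (bounds 31.9 to 40.7). In the KI pair Trnp1 had 16.7 and was listed at 0, so it also differed between libraries of the same genotype. Il4 (chr11:53602982-53618669), the T helper 2 cytokine, had 14.5 in KO, 0.675 in 21-day WT and 0.712 in 6-week WT, with bounds apart from both. Ccl1, a chemokine made by activated T cells, had 21.3 in KO, 1.29 in 21-day WT and 2.1 in 6-week WT. Its neighbour Ccl8, a chemokine more typical of myeloid cells, had 6.74, 0.267 and 0.300, and in the KI pair 25.6 and 1.15. Vdr, the nuclear receptor for vitamin D, had 7.78 in KO, 0.290 and 0.222 in WT. Lgals3, a secreted lectin, had 81.9 in KO, 3.43 in 21-day WT and 11.4 in 6-week WT, and Lgals7, a galectin of epithelia, had 30.3, 1.62 and 0.755. Lama5, a laminin chain of basement membranes, had 8.53, 0.604 and 0.205, and in the KI pair 6.22 and 0.748. The predicted gene Gm20418 had 9.21, 0.0324 and 0.0384, but it overlaps Mvp and Pagr1a on the same strand, so its reads cannot be separated from theirs. Of the 12 genes furthest above both controls, Ccl8 had a KI library above KO and the other 11 had both KI libraries below it. Except for Trnp1, Ifitm1, Ifitm3, Vdr and Lgals3, each of the 12 genes had both KI libraries above both WT libraries. For example, Ccl1 had 6.11 and 5.51 in KI, and Lgals7 4.24 and 4.31.

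**Figure D2:**
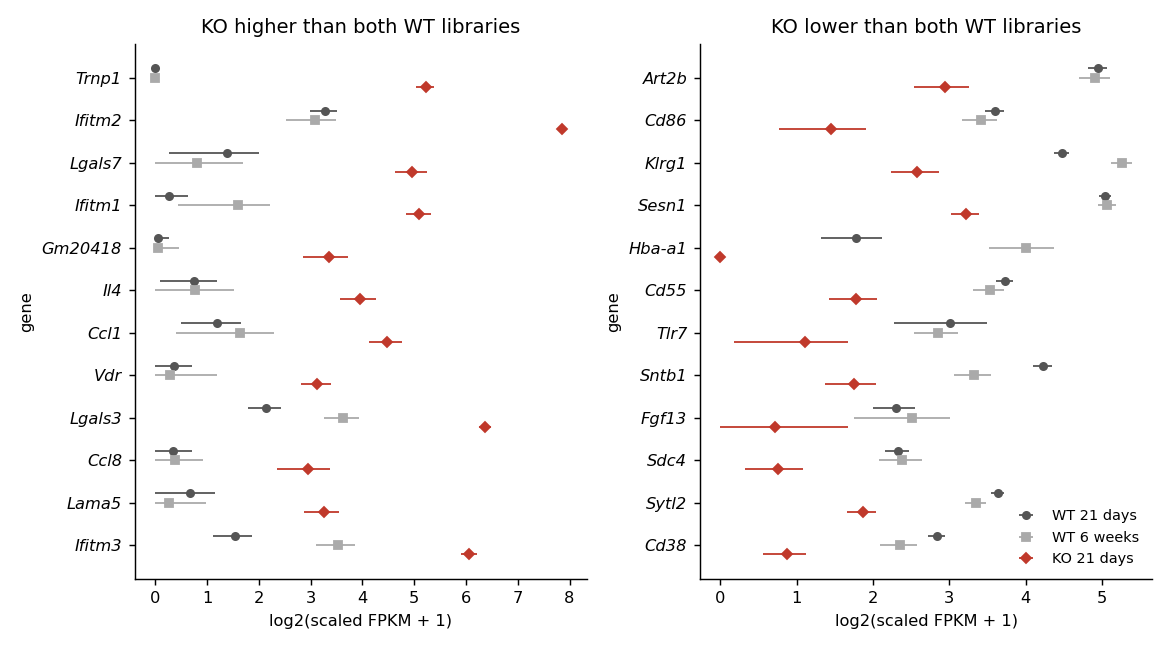
Levels of the 12 genes furthest above (left) and the 12 furthest below (right) both WT libraries, as log2 of scaled FPKM + 1, with the deposited bounds as bars. Grey symbols are 21-day WT (circles) and at 6 weeks (squares), red diamonds are KO; the bounds of KO lie apart from those of both controls in every row shown.

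The 12 genes furthest below both WT libraries included Cd86, Klrg1 and Art2b. Cd86, the ligand of CD28 and CTLA-4, had 1.72 in KO (bounds 0.697 to 2.74), 11.1 in 21-day WT and 9.63 in 6-week WT. Klrg1, a receptor of terminally differentiated effector lymphocytes and Treg cells, had 4.98 in KO, 21.3 and 37.3 in WT. Art2b, an enzyme that ADP-ribosylates surface proteins of T cells, had 6.67, 29.9 and 29.1. Each of these 3 genes lay below both controls with bounds apart, by 2.15, 1.90 and 2.01 against 21-day WT. Cd55, which protects cells from complement, had 2.41 in KO, 12.3 and 10.6 in WT, and Cd38, an NAD-consuming surface enzyme, had 0.826, 6.15 and 4.10. Sesn1, a stress-induced inhibitor of mTORC1, had 8.28, 32.0 and 32.6. Tlr7, an endosomal sensor of single-stranded RNA, had 1.16, 7.06 and 6.23, Sdc4, a heparan sulfate proteoglycan, 0.685, 4.0 and 4.22, and Sytl2, which tethers secretory vesicles, 2.64, 11.4 and 9.19. Sntb1, a syntrophin, had 2.35, 17.7 and 9.02, and Fgf13, an intracellular relative of the fibroblast growth factors, 0.648, 3.93 and 4.69. Hba-a1, a haemoglobin chain that marks red cells, was listed at 0 in KO and had 2.42 and 15.1 in WT. The KI libraries did not stand together for some of these genes: Art2b had 3.38 and 35.3, and Klrg1 had 0.699 and 7.16. Except for Art2b, Hba-a1, Sntb1 and Cd38, each of the 12 genes had both KI libraries below both WT libraries. Cd86 had 2.67 and 2.46 in KI, and Sdc4 1.18 and 0.507.

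Of 16 genes of Treg identity, 0 were higher and 7 lower in KO against 21-day WT (median -0.62), where 7.48% of all genes were lower. Against 6-week WT 0 were higher and 1 lower (median -0.19), where 1.31% of all genes were lower, and the difference between the controls was not tested. Foxp3 was lower against 21-day WT (70.7, difference -1.19) but lay 0.36 below 6-week WT (39.5), which was not called. Ikzf2, which encodes the Foxp3 partner Helios, was the gene called against both, with 15.3 in KO, 68.0 in 21-day WT and 36.3 in 6-week WT. Ctla4, the inhibitory receptor of CD80 and CD86, had 118 in KO, 396 in 21-day WT and 148 in 6-week WT. Nrp1, a receptor of thymus-derived Treg cells, had 23.2, 51.6 and 30.9, Itgb8, an integrin that activates latent TGF-beta, 0.756, 6.76 and 1.38, and Nt5e, the CD73 enzyme that makes adenosine, 21.6, 58.4 and 37.3. These 4 genes were called against 21-day WT and not against 6-week WT. In the KI pair, whose depth is nearer to 21-day WT, Foxp3 had 70.1 and 73.6, Ikzf2 62.6 and 104, and Ctla4 412 and 246. For 10 of the 16 genes 21-day WT and both KI libraries lay above KO and 6-week WT, against 22.6% of all genes. The part of depth in these differences was not tested. Not called against either control were Tnfrsf18 (99.5 in 21-day WT, 90.0 in 6-week WT), Tnfrsf4, the receptor OX40 (156 in KO, 147 and 121 in WT), and Il2ra (93.4 and 74.2 in WT). In bulk RNA of sorted cells, fewer cells of a type and less RNA per cell cannot be told apart. The median of the 11 surface genes against 21-day WT was -0.28, where that of all genes was 0.04. With FPKM as deposited it was 0.10, where that of all genes was 0.37.

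Genes of effector Treg cells moved in both directions. Of 30 measured, 4 were higher and 3 lower against 21-day WT, and 3 were higher and 1 lower against both WT libraries. Lag3, an inhibitory receptor that binds class II molecules, had 60.1 in KO, 13.8 in 21-day WT and 13.1 in 6-week WT. Havcr2, the inhibitory receptor TIM-3, had 7.35, 1.07 and 1.52. Both lay above the controls with bounds apart, whereas Pdcd1, the receptor PD-1 (20 in KO, 17.9 and 22.1 in WT), and Tigit (72.7, 68.5 and 44.5) were not called. Il10, a suppressive cytokine, had 17.5 in KO, between 32.8 in 21-day WT and 8.11 in 6-week WT. Areg, a ligand of the EGF receptor linked to tissue repair, had 3.46, 14.2 and 1.37, so its direction depended on the control. Rora, a nuclear receptor of tissue Treg cells, had 2.58, 17.8 and 5.25.

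Several genes of the cytotoxic granule were higher in KO and none lower. Of 15 measured, 5 were higher and 0 lower against 21-day WT (median 0.68), and 4 were higher and 0 lower against 6-week WT (median 0.63). Of 4 granzymes that passed the filter, 3 were higher against 21-day WT and 2 against both. Gzmb, which triggers apoptosis in target cells, had 58.7 in KO, 7.13 in 21-day WT and 9.93 in 6-week WT, and Gzma had 14.9, 1.54 and 5.23. Nkg7, a granule membrane protein, had 73.8, 19.4 and 29.1, and Cst7, a cystatin that inhibits granule cathepsins, 110, 45.7 and 41.6. Prf1, the pore former perforin, had 3.10, 1.13 and 2.21 and was not called. The 5 markers of NK cells were Ncr1, Klrb1c, Klrd1, Nkg7 and Eomes. Their summed scaled FPKM was 79.7 in KO, 22 in 21-day WT and 35 in 6-week WT. Most of each sum was Nkg7, itself a granule gene named above, with 73.8, 19.4 and 29.1. Eomes, a transcription factor of NK and cytotoxic T cells, had 2.76, 0.599 and 1.62 and was higher against 21-day WT. The receptor genes Klrb1c (1.82, 0.650 and 0.865) and Klrd1 (1.17, 1.25 and 3.17) were not called, Ncr1 did not reach the filter, and the part of NK cells in the result was not tested.

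Among T helper genes, the cytokines Il4 and Il13 were higher, and 4 of 5 measured Th17 genes were lower against 21-day WT. Of 8 measured Th2 genes 2 were higher and 0 lower against both WT libraries, Il4 and Il13, a cytokine of allergic inflammation with 3.33 in KO, 0.119 in 21-day WT and 0.325 in 6-week WT. Il5, the eosinophil growth factor, had 0.926, 0.0247 and 0 and missed the threshold with a difference of 0.91. Gata3, the Th2 transcription factor, had 59.2, 48.2 and 43.0 and was not called. Il4 and Il13 are neighbours: of 8 entries within 100 kb of Il4, 5 passed the filter and 3 were higher against both WT libraries, Il4, Il13 and Sept8, a septin (6.07 in KO, 2.05 and 1.76 in WT). Rad50, a DNA repair gene that holds the locus control region of these cytokines, had 6.90, 7.13 and 5.67 and was not called. Of 5 measured Th17 genes, 4 were lower and 1 higher against 21-day WT, and 2 lower and 1 higher against both. Among the lower genes Ccr6, the receptor for CCL20, had 3.27 in KO, 14 in 21-day WT and 8.64 in 6-week WT. The higher gene was Il21, a cytokine also counted among Tfh genes, with 3.67, 0.264 and 0.238. Of 6 Th1 genes, 2 were higher against 21-day WT, Tbx21, the Th1 transcription factor (6.34, 2.37 and 3.29), and Il12rb2, a receptor chain for interleukin 12 (2.34, 0.593 and 0.354), the latter against both. Ifng, the Th1 cytokine, had 14.9, 15.8 and 8.09 and was not called.

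**Figure D3:**
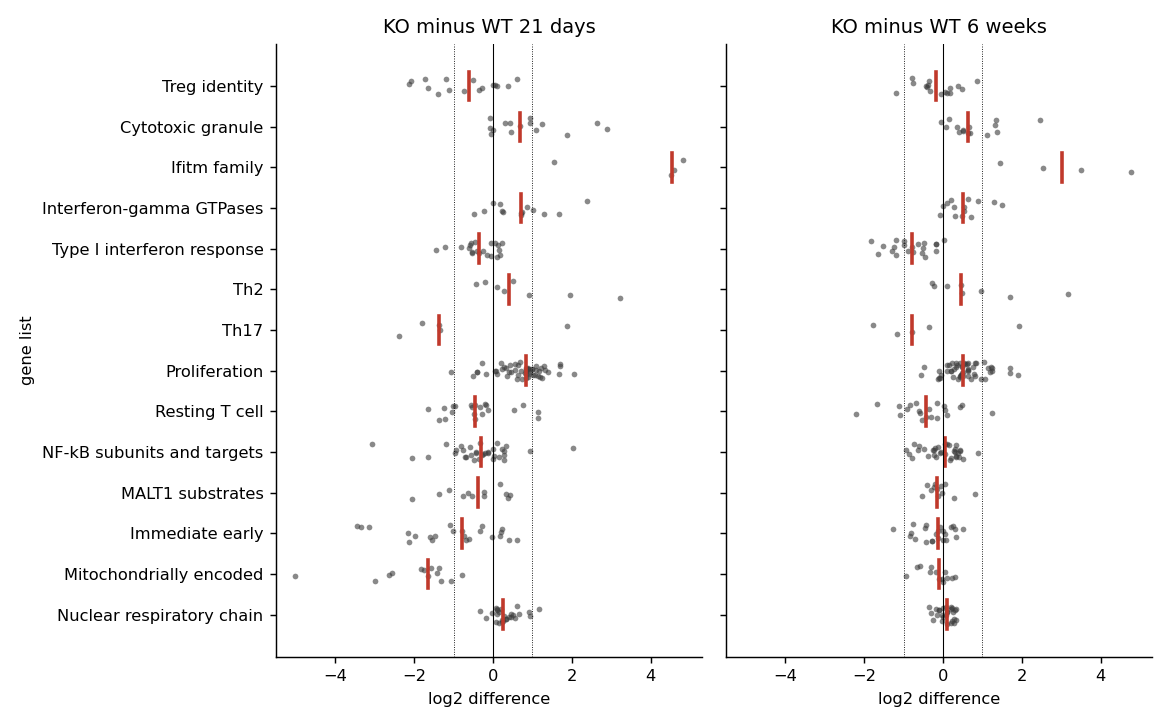
Difference of KO from 21-day WT (left) and from 6-week WT (right) for each measured gene of 14 lists, on the log2 scale. Points are genes, red bars are list medians and dotted lines mark a difference of 1; the Ifitm family lies to the right in both panels, while the mitochondrially encoded genes lie at a median of -1.65 on the left and -0.10 on the right.

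The genes of cell division and of its inhibitors called in KO were higher but for 1. Of 54 measured, 15 were higher and 1 lower against 21-day WT (median 0.84), and 9 were higher and 0 lower against 6-week WT (median 0.49). Of the 9, 4 encode inhibitors of cyclin-dependent kinases, of which 6 were measured: Cdkn1a (10.7 in KO, 5.67 in 21-day WT and 2.13 in 6-week WT), Cdkn2a, Cdkn2b (1.32, 0.290 and listed at 0) and Cdkn2c (17.1, 8.18 and 7.24). Cdk1, the kinase that drives mitosis, had 27.8 in KO, 5.91 in 21-day WT and 7.95 in 6-week WT. Cdc20, an activator of the anaphase-promoting complex, had 17.4, 4.67 and 6.85, Top2a, a topoisomerase, 53.4, 22.6 and 25.3, and Bub1b, a checkpoint kinase, 10.6, 4.17 and 4.10. These 4 and Cdkn2a, which encodes the inhibitors p16 and p19Arf (3.45, 0.360 and 0.367), were the 5 genes higher against both. Of 13 replication genes 1 was higher against 21-day WT and 0 against 6-week WT. Cdkn1b, the inhibitor p27, was the lower gene, with 33.8, 71.8 and 47.6. Mki67, a marker of cycling cells, had 25.3, 13.7 and 16.1 and was not called. The KI libraries lay apart for several of these genes. In that pair Cdk1 had 7.44 and 19.6, Cdc20 5.35 and 17.2, Bub1b 4.23 and 12.6, and Mki67 15.9 and 49.9. For Top2a (86.8), Bub1b and Mki67 a KI library lay above KO. For Cdk1, Cdc20 and Cdkn2a (1.15 and 0.754) both KI libraries lay below KO. Whether the differences of KO exceed the spread within a group was not tested.

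Genes of homing and survival went both ways. Of 21 genes of resting T cells, 2 were higher and 6 lower against 21-day WT, and 1 higher and 2 lower against both. Il7r, the receptor for interleukin 7, had 130 in KO, 58.8 in 21-day WT and 54.6 in 6-week WT. Il6ra, the receptor for interleukin 6, had 15.4, 37.1 and 34.2, and Actn1, an actinin, 14.3, 38.8 and 47.6. Ccr7, which guides cells into lymph nodes, had 54.2, 171 and 81.8, and Foxo1, a transcription factor of resting T cells, 34.3, 81.7 and 65.3, both called against 21-day WT alone. Of 27 integrin and trafficking genes, 2 were higher and 6 lower against 21-day WT, and 2 higher and 3 lower against both. Itga4, the alpha chain of the integrins VLA-4 and LPAM-1, had 10.9, 71.9 and 28.6, and Ccr9, a receptor for homing to the gut, 2.58, 8.17 and 7.22. Cxcr6, the receptor for CXCL16, had 19.4, 7.32 and 6.83, and Ccr1, a receptor for inflammatory chemokines, 2.03, 0.202 and 0.0783. Itgae, which binds E-cadherin, had 46.3, 30.1 and 24.9 and was not called.

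Some S100, annexin, galectin and cytoskeletal genes were also called. Of 20 measured S100, annexin and galectin genes 6 were higher and 0 lower against 21-day WT, and 3 were higher against both. S100a6, which binds annexins, had 222 in KO, 49.2 in 21-day WT and 84.9 in 6-week WT. Anxa1, an annexin that limits inflammation, had 4.54, 0.835 and 0.707, and Lgals3 was the third. Lgals1, another galectin, had 453, 142 and 276 and was called against 21-day WT alone. Vim, an intermediate filament, had 633, 205 and 305 and was called against both. It was listed in a group of 15 whose other genes were of actin and actin-binding proteins, and none of those others was called. Tubb2a, a tubulin, had 2.84, 8.82 and 7.89 and was lower against both.

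In the lists of the CBM complex, its substrates and NF-kB targets, calls were made against 21-day WT and 0 against 6-week WT. Of 21 genes of the complex and of its upstream and downstream kinases, 0 were higher and 1 lower against 21-day WT, and 0 were called against 6-week WT. Bcl10, the adaptor that binds MALT1, had 28.1 in KO, 43.9 in 21-day WT and 34.9 in 6-week WT. The lower gene was Tab3, an adaptor of the kinase TAK1, with 1.95, 5.08 and 1.93. Of 12 transcripts encoding substrates of the protease, 0 were higher and 3 lower against 21-day WT and 0 were called against 6-week WT. Tnfaip3, the NF-kB inhibitor A20, had 190 in KO, 795 in 21-day WT and 218 in 6-week WT, Rc3h1, Roquin-1, 3.81, 11.5 and 5.40, and Zc3h12a, Regnase-1, 20.3, 45.3 and 20.8. For these 3 genes the bounds of KO and 21-day WT did not overlap. Of 9 transcripts that Regnase-1 or the Roquins are known to target, 0 were higher and 4 lower against 21-day WT and 0 were called against 6-week WT. The shares of all genes lower were 7.48% and 1.31%.

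Of 34 NF-kB subunits and targets, 1 was higher and 4 lower against 21-day WT (median -0.31), and 0 were called against 6-week WT (median 0.05). With FPKM as deposited the medians against 21-day WT were 0.26 for the subunits and 0.25 for the survival and adaptor targets. They were 0.05 for the surface and cytokine targets and -0.27 for the inhibitors and feedback genes. All of these lay below the median of all genes in that setting, 0.37. Rel, the subunit c-Rel, had 4.64 in KO, 46.5 in 21-day WT and 7.79 in 6-week WT, and its promoter is shown because it holds the motif of its own protein family.
Rel (chr11:23770940-23771219, minus strand): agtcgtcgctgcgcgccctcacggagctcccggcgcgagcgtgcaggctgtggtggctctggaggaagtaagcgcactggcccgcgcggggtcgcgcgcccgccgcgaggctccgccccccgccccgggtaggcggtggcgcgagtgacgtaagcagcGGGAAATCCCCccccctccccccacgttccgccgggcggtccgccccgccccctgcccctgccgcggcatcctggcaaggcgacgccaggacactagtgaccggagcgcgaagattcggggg
The capitals mark 2 overlapping kB matches. Nfkbiz, a nuclear regulator of NF-kB, had 28.2, 66.0 and 40.0, and Cd83, a surface protein of activated cells, 12.6, 41.5 and 22.6. The higher gene was Bcl2a1a, a survival gene with near-identical copies, with 12.2, 2.21 and 9.71. Nfkb1 (84.6, 92.5 and 76.7), Rela (35, 41.9 and 36.6) and Nfkbia, the inhibitor IkB-alpha (290, 479 and 320), were not called.

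Many immediate early genes, whose transcripts appear within minutes of stimulation or tissue handling, and most mitochondrially encoded subunits were lower against 21-day WT. Of 23 immediate early genes, 0 were higher and 11 lower against 21-day WT (median -0.79), and 0 were higher and 1 lower against 6-week WT (median -0.14). Nr4a3, a nuclear receptor induced by antigen, had 3.78 in KO, 51.5 in 21-day WT and 7.39 in 6-week WT. Dusp4, a phosphatase that ends MAP kinase signalling, had 8.28, 94.6 and 14.1, and Fosb, an AP-1 subunit, 51.5, 144 and 87.9. Atf3, a stress-induced factor, was the gene lower against both, with 1.69, 6.84 and 5.48. Of 13 mitochondrially encoded subunits, 12 were lower against 21-day WT (median -1.65) and 0 against 6-week WT (median -0.10), while of 27 nuclear-encoded subunits 1 was higher and 0 lower against 21-day WT (median 0.25). For example mt-Co1, a subunit of cytochrome oxidase, had 4088 in KO, 12875 in 21-day WT and 4587 in 6-week WT. For mt-Atp8, an ATP synthase subunit that overlaps mt-Atp6, the levels were 35.7 in KO, 1179 in 21-day WT and 56.8 in 6-week WT. Pydc4, an interferon-inducible PYHIN family gene, had 1.92, 25.4 and 2.08.

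The KI pair, whose depth lies nearer to 21-day WT than to KO, is given beside these genes. In it mt-Atp8 had 1272 and 1114, Dusp4 88.6 and 39.6, Nr4a3 58.8 and 16.8, and Pydc4 8.02 and 29.8. In these 4 genes, the furthest below 21-day WT, the 3 deeper libraries lay above KO and 6-week WT. The same order held for 10 of the 13 mitochondrially encoded subunits (76.9%) and 10 of the 16 genes of Treg identity (62.5%). Among the 23 immediate early genes it held for 6 (26.1%), and among all genes for 22.6%. It did not hold for Fosb (190 and 13.3 in KI), Atf3 (16.5 and 0.921) or Dusp10, a MAP kinase phosphatase with 28.7 in KO, 89.7 and 27.9 in WT and 99 and 12.4 in KI. Over all genes lower in KO than in 21-day WT, 658 of 892 (73.8%) had both KI libraries above 6-week WT. Over all 11927 genes this share was 36.1%. KI and 6-week WT differ in genotype as well as in depth, and these cannot be told apart here. Among the 672 higher genes, both KI libraries lay below 6-week WT for 343 (51.0%), against 37.9% of all genes. The part of depth in these differences was not tested.

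Differences against 21-day WT also followed transcript length. The longest annotated transcript had a median of 2206 nt among the 490 protein-coding genes higher in KO, 4998 nt among the 626 lower and 3330 nt among all 10230. With these genes in 5 groups of equal size by length, in the shortest (204 to 1928 nt) 9.92% of genes were higher and 3.03% lower, and in the longest (5148 to 123179 nt) 1.03% were higher and 14.8% lower. The median difference went from 0.35 in the shortest group to -0.39 in the longest, while against 6-week WT it went from 0.07 to -0.09. GC content moved with length, with medians of 52.5% in the higher set, 44.6% in the lower and 49.6% in all. Among genes called against both WT libraries the medians of length were 2206 nt in the higher set and 3452 nt in the lower set. With the length trend removed, an alternative chosen after it was seen, 136 of the 165 protein-coding genes higher against both and 58 of the 64 lower remained called. The part of RNA or library quality in this trend was not tested.

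**Figure D4:**
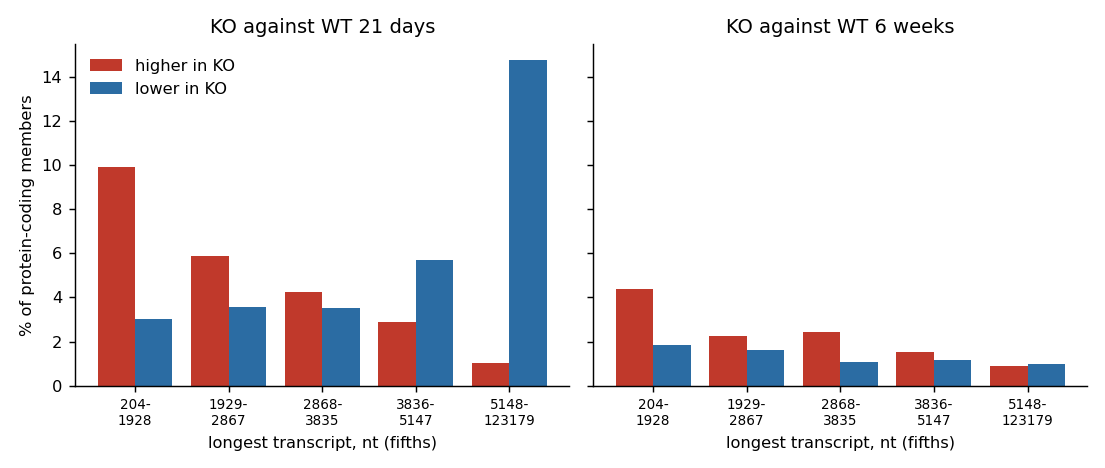
Share of protein-coding genes called higher (red) or lower (blue) in KO, in 5 groups of equal size by the longest annotated transcript (horizontal axis, nt), against 21-day WT (left) and 6-week WT (right). The share of lower calls reached 14.8% in the group of the longest transcripts on the left.

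The levels of transcripts of other cell types differed between libraries. The sums over marker lists, in scaled FPKM, are given as KO, 21-day WT and 6-week WT. The 7 B cell markers had sums of 6.70, 16.7 and 22.5, the 9 myeloid markers 61.0, 37.8 and 146, the 6 markers of plasmacytoid dendritic cells 39.5, 43.0 and 107, and the 6 erythroid and platelet markers 2.38, 6.60 and 49.7. 6-week WT was the highest in each of these 4 lists. Most of the plasmacytoid sums was Bst2, also counted in the type I interferon response, with 32.7, 31.9 and 65.8. All 4 B cell markers that passed the filter were lower against 6-week WT, and Ms4a1, the antigen CD20 (0.585, 3.0 and 2.49), and Cd79a, a chain of the B cell receptor (0.522, 2.39 and 4.68), were lower against both, while Pax5, Blk and Ebf1 did not reach the filter. Of 5 measured myeloid markers 4 were lower against 6-week WT, among them Tyrobp, a signalling adaptor (3.22, 1.24 and 50.1), and Csf1r, the receptor for CSF1 (0.917, 0.611 and 5.08), and 1, the lysozyme gene Lyz2 (9.06, 3.77 and 25.9), was higher against 21-day WT. For Siglech, which marks plasmacytoid dendritic cells, the levels were 1.24, 0.294 and 16.8. The 4 markers of mast cells and basophils had sums of 0.0614, 0.0249 and 0.396, and 3 of the 4 were listed at 0 in KO. Of 6 measured genes of class II presentation, 3 were higher against 21-day WT and 3 lower and 1 higher against 6-week WT. H2-DMa, which loads peptides, was higher against both, with 64.0, 13.9 and 22.3, whereas H2-Aa had 25.9, 9.96 and 78.0, so that its direction depended on the control. Antigen-presenting cells express all of these, and the part of such cells in the result was not tested.

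**Figure D5:**
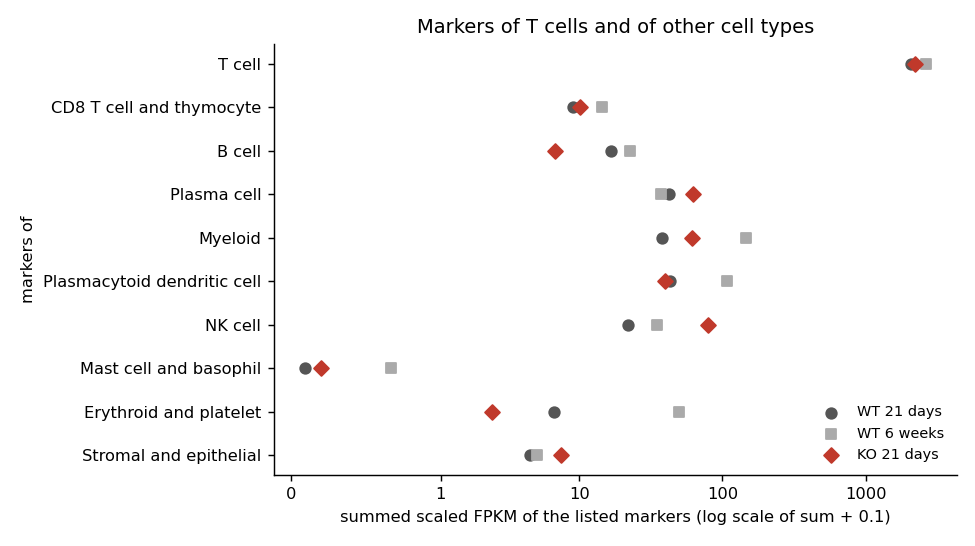
Summed scaled FPKM of fixed marker lists (horizontal axis, log scale of the sum + 0.1) in KO (red diamonds), 21-day WT (dark circles) and 6-week WT (light squares). T cell markers lie between 2047 and 2623 in the 3 libraries, and 6-week WT is highest for B cell, myeloid, plasmacytoid dendritic and erythroid markers.

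Immunoglobulin transcripts were higher in KO although the B cell markers were not. Of 105 measured immunoglobulin variable segments, 46 were higher and 1 lower against 21-day WT, and 37 were higher against both WT libraries. Summed over the 59 kappa segments whose symbols begin with Igkv, the level was 151 in KO, 22.7 in 21-day WT and 34.6 in 6-week WT. The most abundant of these in KO, Igkv15-103, made 11.3% of the sum. Segments listed under other symbols are not in this sum. In the KI pair the Igkv sums were 29.7 and 5.94. Of 9 constant genes, 5 were higher and 1 lower against both. Ighg1, the constant gene of IgG1, had 164 in KO, 5.97 in 21-day WT and 0.912 in 6-week WT, and Ighe, that of IgE, had 15.5, 0.299 and 0.292. In the KI pair Ighg1 had 48 and 0.964, so this gene also lay far apart within a group. Igkc, the kappa constant gene, had 399, 55.2 and 94.6, whereas Ighm, that of IgM, had 216, 187 and 299 and was not called. The sum of 4 plasma cell markers was 62.5, 42.5 and 37.5, of which Xbp1, a gene T cells also express, made 53.7, 38.9 and 30.8, and Igj, also named Jchain, which joins IgM and IgA chains, 5.87, 1.22 and 3.52. Sdc1, a defining plasma cell gene, did not reach the filter, and the part of plasma cells in the result was not tested. Segments share sequence, so reads may be split among them. The T cell receptor variable segments behaved otherwise: of 103 measured, 8 were higher and 6 lower against 21-day WT, and 0 were called against both. Alpha segments with symbols beginning with Trav summed to 290, 371 and 345. Beta segments with symbols beginning with Trbv summed to 1045, 1100 and 1219, and the most abundant, Trbv13-2, made 10.4%, 11.6% and 13.2%.

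The remaining lists are given by their counts, beside 5.63% of all genes higher and 7.48% lower against 21-day WT. Of 36 cytoplasmic ribosomal protein genes 3 were higher and 0 lower against 21-day WT, and 0 were called against 6-week WT. Glycolysis had 1 of 16 higher against 21-day WT, cholesterol synthesis 1 of 20 lower, apoptosis regulators 1 of 19 higher and the unfolded protein response 1 of 15 in each direction, and each had 0 calls against 6-week WT. Of 12 chaperones, 2 were higher and 3 lower against 21-day WT, and Hspa1b, a stress-inducible HSP70, was higher against both, with 6.81 in KO, 1.11 and 2.06 in WT. Xist, the RNA of the inactive X chromosome in females, had 11.9, 1.17 and 0.185, and the Y-linked Ddx3y had 7.04, 25 and 11.8, so transcripts of both sexes were present in KO. The sex of the animals is not stated in the labels, and its part in these results was not tested.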

How the data were processed

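Total RNA of CD4+YFP+ cells was sequenced in 5 libraries, with 1 library a side in the comparison described. Per the submitters' processing notes, the authors used CASAVA, the aligner HISAT2 2.1.0, Cufflinks 2.2.1 and the genome build GRCm38. Per the file headers, the authors deposited FPKM for each gene together with a lower and an upper bound. Not given in the sources used here: the annotation, the strand setting and whether reads were paired. Overlapping genes may therefore share reads.

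Each library's FPKM were divided by the median of its ratios to the geometric mean, taken over 9874 genes that reached 1 in every library (0.876 in 21-day WT, 1.15 in 6-week WT, 1.15 in KO, 0.868 and 1.01 in KI). Differences use log2(scaled FPKM + 1), so changes of low genes are understated. Genes were kept at an FPKM of 1 or more in KO or 21-day WT. A call needs a difference of at least 1 and bounds that do not overlap. File starts count from 0: adding 1 gave the GENCODE M21 start for 27652 of 36282 entries found there. Printed coordinates begin at 1. Gene types, transcript lengths and GC content are from GENCODE M21, and promoters from RefSeq (GRCm38.p6).

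The genes named are Malt1, the 12 higher and 12 lower protein-coding genes with the largest smaller-of-2 differences among those called against both WT libraries, the 4 higher and 4 lower with the largest difference against 21-day WT, and from each of 35 lists its defining genes and those with the largest differences. Flanking genes of a locus, immunoglobulin genes and the examples of uncalled genes were chosen after their values were seen. Members and lists were chosen with earlier results of these data known. The lists hold 593 symbols. Some list members are counted but not reported by name here. The listed Gins2, Cdt1 and Gnly were not analysed here. Python 3.11.15 with pandas 2.3.3, numpy 2.4.6 and matplotlib 3.10.9 was used, and as an alternative limma 3.58.1 in R 4.3.3. The call rule and the limma step were tested on simulated data. Intervals other than the deposited bounds were not computed, since depth in counts is unknown.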

Additional observations from a re-analysis of the deposited data

How the results depend on the processing

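No paired analysis was possible because KO and each WT library stand alone, and for the same reason no replicate could be left out. The counts against 21-day WT, 672 higher and 892 lower, were 1487 and 464 with FPKM as deposited, 128 and 117 at a 4-fold threshold, 324 and 156 with 6-week WT as control, and 360 and 469 with the length trend removed (490 and 626 protein-coding genes before; chosen after seeing the data). With FPKM of 1 or more required in both libraries 399 were higher. A limma fit whose spread comes from the KI pair alone (1 residual degree of freedom) called 0 higher and 0 lower at an adjusted p of 0.05, with a smallest adjusted p = 0.0888 and 778 higher and 748 lower at an unadjusted p under 0.05. The 228 genes higher against both WT libraries became 148 at FPKM of 5 or more, 101 at FPKM of 1 or more in both, 359 without the bounds, 58 at 4-fold and 143 with the length trend removed. The 79 lower against both became 150 with a pseudocount of 0.1 and 1 at 4-fold. FPKM as deposited kept 227 of the 228 and 52 of the 79. Over the gene lists, 63 higher and 69 lower genes became 40 and 35 with 6-week WT, and 112 were higher with FPKM as deposited. Of 151 genes followed singly, 15 called against 21-day WT had the opposite sign against 6-week WT: Igfbp4 (-0.68), Cd74 (-0.52), H2-Aa (-1.56), Lyz2 (-1.42), Nr4a2 (0.20), Fosl2 (0.51), Areg (0.91), Tab3 (0.01), Dusp10 (0.04), Bach2 (0.03), Cxcr4 (0.47), mt-Nd1 (0.10), mt-Co2 (0.04), mt-Co3 (0.22) and mt-Nd4l (0.31). The cause was not tested. The other alternatives left these counts over all genes and over the lists together within 1.5 times. Of 68 counts for single lists and directions, 20 moved by more with FPKM as deposited and 36 with 6-week WT as control, and 0 with the upper-quartile factor. With FPKM as deposited the proliferation list went from 15 to 32 higher, the cytotoxic list from 5 to 8, the S100, annexin and galectin list from 6 to 10, the interferon list from 8 to 14, class II presentation from 3 to 6 and effector Treg genes from 4 to 7, and lower calls went from 6 to 2 of resting T cell genes and from 4 to 2 of Regnase-1 and Roquin targets. Low genes are limited by the depth of KO and 6-week WT, where the upper bound of the median gene lay 17.8% and 18.2% above its value, against 10.3% in 21-day WT.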

Other observations

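Some genes outside the lists were also called against both WT libraries and are named after their values were seen. Higher in KO were Csf1, the macrophage growth factor, with a scaled FPKM of 42.1 in KO, 7.05 in 21-day WT and 5.31 in 6-week WT, and Epas1, the hypoxia-inducible factor HIF-2 alpha, with 11.4, 1.27 and 0.729. Il1r2, a decoy receptor for interleukin 1, had 40.5, 13.6 and 11.4, and Ly6a, the surface protein Sca-1, 413, 77.1 and 111. Adam8, a membrane metalloprotease, had 18.7, 2.81 and 3.12, and Ltb4r1, the receptor for leukotriene B4, 12.6, 2.32 and 2.40. Csf2, which encodes GM-CSF, had 2.15, was listed at 0 in 21-day WT and had 0.287 in 6-week WT.

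Lower in KO was Il6st, the gp130 chain that pairs with the receptor encoded by Il6ra, with 12.6, 33.5 and 26.2. Smad7 and Skil, which restrain TGF-beta signalling, had 17.3, 42.9 and 39.7 and 6.64, 41.4 and 15.2. Dtx1, a Notch-regulated ubiquitin ligase, had 22.7, 51.0 and 65.7. Of the class II peptide-loading regulators, H2-Ob was lower (6.30, 14.4 and 16.1) while H2-Oa was higher (25, 11.9 and 11.6).

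The spread between the KI libraries was also read for the genes called against both WT libraries, with no test. The KI pair lay 2-fold apart, with bounds apart, for 46 of the 228 higher genes (20.2%) and 21 of the 79 lower (26.6%), against 5.42% of all 11927.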
